A study of Mus musculus with 20 samples.

Results

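Cutaneous squamous cell carcinoma (cSCC) was compared with normal skin (NS) by RNA-seq of 4 cSCC and 8 NS samples, which are 12 of the 20 samples of the series. The samples were taken by their labels, as the columns labelled cSCC_018 to cSCC_021 and NS_001, NS_002 and NS_004 to NS_009, and are called replicates 18 to 21 and 1, 2 and 4 to 9. The 8 actinic keratosis (AK) samples entered only an alternative fit of all 20 samples. All tissue came from the back of female SKH-1 mice, a hairless strain used for ultraviolet carcinogenesis, which were 7 months old when the arms were formed. The mice formed 2 arms of 4, an arm without ultraviolet light and an arm exposed to it (UVR). Each unexposed mouse gave 1 piece of normal skin, while each UVR mouse gave 1 piece of normal skin and lesions that included the cSCC. NS therefore pools skin from both arms, the labels do not tell them apart, and no cSCC sample could be matched to the NS of its mouse. Tissues of 1 mouse may resemble each other, and p-values here treat all 12 samples as independent.

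Solid tumors outgrow their blood supply, and cells short of oxygen stabilize the HIF transcription factors, which switch on glycolysis, lactate export and angiogenic factors. A heavy load of secreted protein triggers the unfolded protein response, which raises the folding machinery of the endoplasmic reticulum, and oxidants act through NRF2 on glutathione and thioredoxin genes. In skin, wounding and ultraviolet light also set off an alarm program of IL-1, chemokines and proteases, while cells that leave the basal layer normally turn on the cornified envelope. These programs are described below by the number of their genes that changed in all 4 tumors.

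Total counts ranged from 1624325 to 6295575 in NS, and were 2830894, 1996789, 775750 and 7095102 in cSCC replicates 18, 19, 20 and 21. A level of 3 counts corresponded to 0.487 to 1.68 CPM (counts scaled to the library size with TMM factors) in NS and to 2.07, 1.33, 3.50 and 0.499 CPM in the cSCC samples, so lower levels rest on fewer than 3 counts. Transcripts of other tissues set 3 cSCC libraries apart. The 4 haemoglobin genes took 46.8% of the counts of replicate 18 (95% Wilson interval 46.8 to 46.9), against 1.44%, 5.02% and 6.02% in replicates 19, 20 and 21 and 0.0917% to 5.45% in NS. Genes of the lung epithelium list, such as Sftpc (surfactant protein C), took 4.58% of the counts of replicate 20 and at most 0.122% in every other sample. The heart muscle list, such as Actc1 (cardiac actin), took 7.33% in replicate 21 and at most 0.0710% elsewhere. These intervals and floors cover counting error only. The keratinocyte list, which includes Krt5, Krt14 and Trp63, summed to 10704 to 22979.5 CPM in NS and to 23343, 22122, 7301 and 5722 CPM in cSCC replicates 18, 19, 20 and 21, so replicates 20 and 21 lay below every NS sample. Krt14 itself, a keratin of basal cells, was at 13997, 13682, 4214 and 2934 CPM in the 4 tumors and between 3625 and 12961 CPM in NS (median 5969). In bulk tissue, fewer cells of a type and less RNA per cell cannot be told apart.

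**Figure D1:**
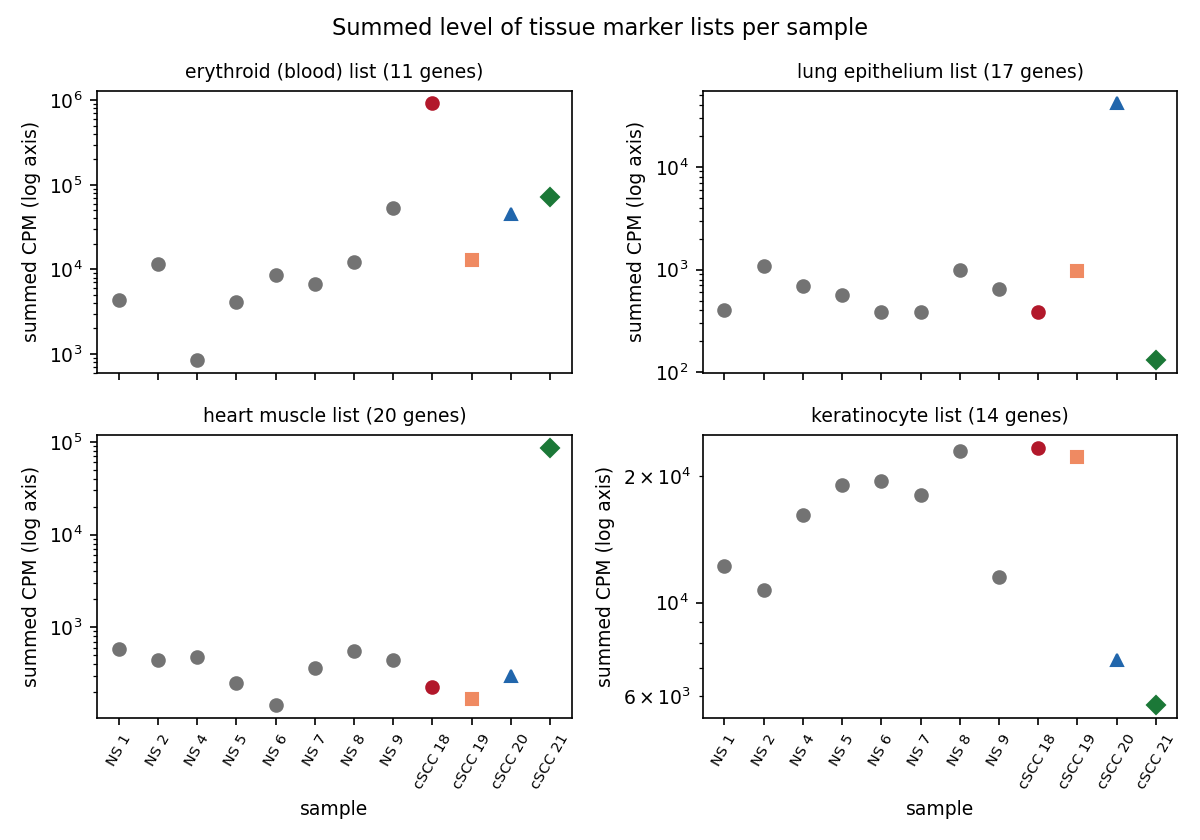
Summed CPM (log axis) of the genes of 4 marker lists in each of the 8 NS (grey) and 4 cSCC samples (colored). Blood genes stand out in cSCC 18, lung genes in cSCC 20 and heart genes in cSCC 21, and the keratinocyte sum is lowest in cSCC 20 and 21.

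Because of these libraries, a change is called shared here when a differentially expressed gene (DEG, with a Benjamini-Hochberg adjusted p under 0.05 in edgeR's quasi-likelihood test and a fold change above 1.5 or below 0.67) also had all 4 tumors outside the range of the 8 NS. Of 12097 genes tested, 1414 (11.7%) were higher and 926 (7.65%) lower in cSCC. Among them, 318 higher genes (2.63% of those tested) and 616 lower genes (5.09%) were shared, which was 22.5% of the higher and 66.5% of the lower DEGs. Replicate 21 had the highest level of 813 of the 1414 higher genes, while replicate 18 had it for 87, replicate 19 for 359 and replicate 20 for 155. Without replicate 21, 859 genes were higher and 892 lower. Scaling by library size alone gave 625 higher and 1332 lower genes, moved the share of higher calls from 60.4% to 31.9%, and moved the median log2 fold change of all genes from 0.14 to -0.17. With the 4 haemoglobin genes removed before that scaling, 1049 genes were higher and 1000 lower. Of the 318 shared higher genes, 227 were DEGs in each of the 4 fits that leave out 1 tumor, as were 507 of the 616 shared lower genes. At the edge of the rule, Fkbp11 (lowest tumor 18.6 CPM, highest NS 18.6) was just inside and Plod2 (10.2 and 10.3 CPM) just outside.

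The 15 shared higher genes with the widest gap between the groups included Upp1, Pthlh, Hdc and Cd300lf, and Il1b, Cxcl2, Trem1, Ptgs2, Gsta4 and Mmp13, which are described with their lists. Upp1, uridine phosphorylase, which splits uridine into uracil and ribose phosphate (chr11:9118103-9136170, GRCm38, plus strand), was at 64.1, 535, 268 and 61.9 CPM in cSCC replicates 18, 19, 20 and 21 and between 0.3004 and 4.26 CPM in NS (median 2.52). The lowest tumor was far above the highest NS sample, and the log2 fold change was 6.68 ± 0.66 (SE), adjusted p = 1.77e-04. Pthlh, which encodes parathyroid hormone-related protein, was at 40.7, 1068, 266 and 84.7 CPM in the tumors and between 0.487 and 8.51 CPM in NS (median 3.24). Its level was highest in replicate 19 and differed by 6.59 ± 0.77 (SE), adjusted p = 4.14e-04 on the log2 scale. Hdc, histidine decarboxylase, which makes histamine, was at 37.9, 124, 68.7 and 58.6 CPM in the tumors and between 1.03 and 15.02 CPM in NS (median 3.81) (log2 fold change 3.45 ± 0.64, adjusted p = 0.00377). Cd300lf, an inhibitory receptor of myeloid cells, was at 55.9, 121, 157 and 40.3 CPM against 0.669 to 7.03 in NS (log2 fold change 5.16 ± 0.59, adjusted p = 3.23e-04). Each of these genes had its lowest tumor well above its highest NS sample. Ccrl2, a chemerin-binding receptor, was at 71.7, 24.02, 66.4 and 38.3 CPM against 1.59 to 7.21 in NS (log2 fold change 3.46 ± 0.41, adjusted p = 4.14e-04). Yif1b, which acts in transport out of the endoplasmic reticulum, was at 19.3, 33.8, 22.1 and 75.7 CPM against 3.83 to 7.47 in NS (log2 fold change 2.73 ± 0.37, adjusted p = 0.00103). S100a7a, the mouse psoriasin relative, had nearly equal levels in the tumors, 38.6, 45.8, 41.9 and 44.1 CPM, but spread over 0 to 15.3 CPM in NS. Its difference of 3.36 ± 1.03 (SE), adjusted p = 0.0345 did not pass in 10 of 24 other settings. Leaving out replicate 19 gave log2 fold changes of 5.87 for Upp1 and 5.11 for Pthlh, leaving out replicate 21 gave 2.10 for Yif1b, and S100a7a was at 3.997 and 3.97 without NS replicates 7 and 8.

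A few of the widest gaps moved with the other tissues. Tnnc1, a troponin of heart and slow muscle, was at 11.7, 5.34, 8.16 and 2606 CPM in the tumors and at most 1.78 CPM in NS, and its level in replicate 21 ran with the heart muscle list. Gpihbp1, which holds lipoprotein lipase on capillary walls, was at 25.5, 24.9, 25.6 and 145 CPM against 0.223 to 6.61 in NS. Replicates 18, 19 and 20 were close to each other and above NS, and replicate 21 was highest (log2 fold change 4.11 ± 0.68, adjusted p = 0.00204). In the fit without replicate 21, the log2 fold change was 3.32 for Tnnc1 and 2.94 for Gpihbp1. The part of heart tissue in either gene was not tested.

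**Figure D2:**
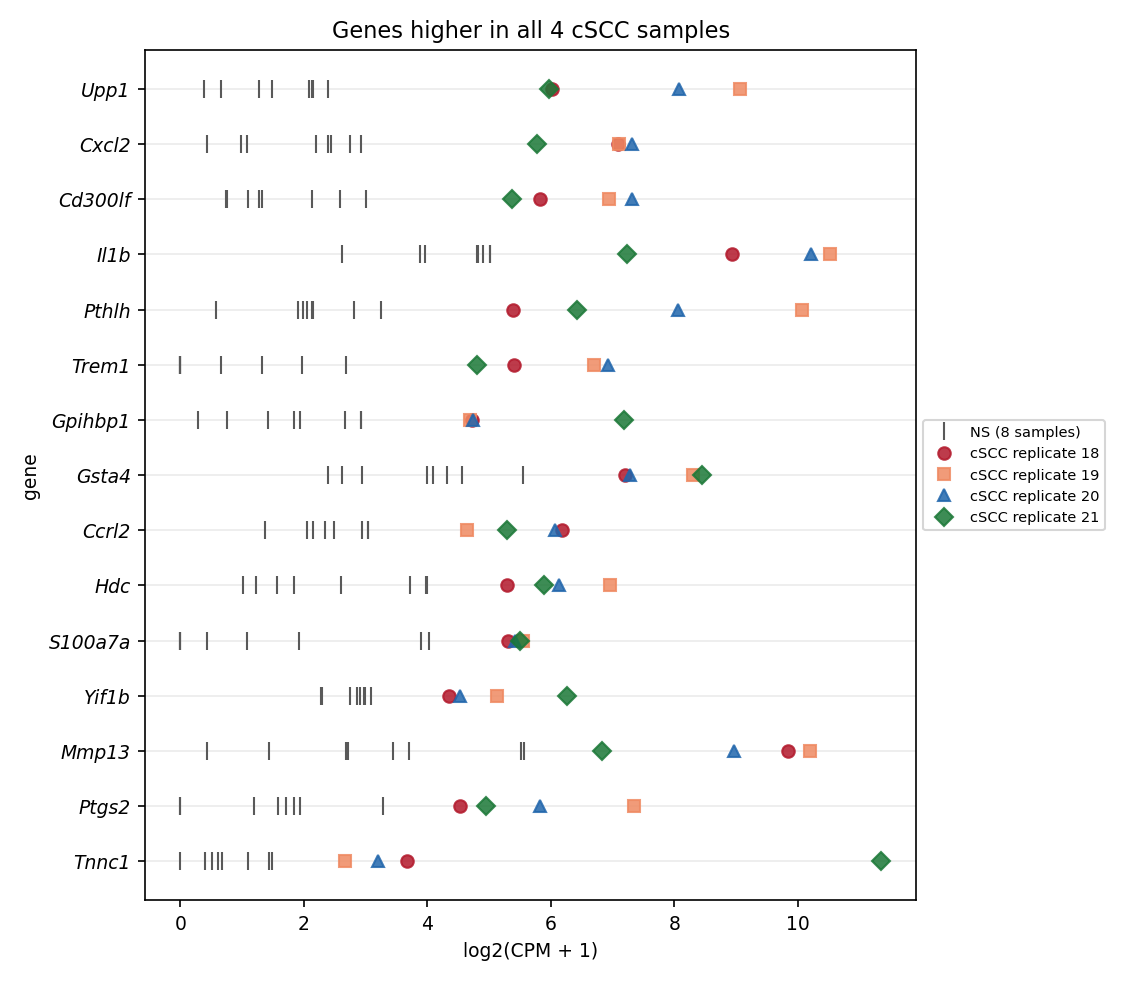
Levels, as log2(CPM + 1), of the 15 shared higher genes with the widest gap between the groups, with NS samples as grey ticks and each tumor in its own color. All 4 tumors lie to the right of all NS samples for every gene, and Tnnc1 is carried by replicate 21.

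Glycolytic enzymes and transporters rose together. Of 21 tested members, 15 were higher, 0 were lower and 5 were shared, and the median log2 fold change was 1.71, against 0.14 over all genes tested. Ldha, lactate dehydrogenase A, was at 2766, 6413, 2112 and 2459 CPM in cSCC replicates 18, 19, 20 and 21 and between 814 and 1561 CPM in NS (median 967). All tumors exceeded all NS samples, replicate 19 most, and the log2 fold change was 1.71 ± 0.35 (SE), adjusted p = 0.00624. Pfkl, the liver-type phosphofructokinase, was at 82.1, 159, 51.3 and 293 CPM and between 19.8 and 49.8 CPM in NS (median 26.5), so replicate 20 cleared the highest NS sample only narrowly (log2 fold change 2.34 ± 0.39, adjusted p = 0.00210). Slc16a3, the lactate exporter MCT4, was at 27.6, 51.2, 23.3 and 52.1 CPM against 1.06 to 16.8 in NS (log2 fold change 2.52 ± 0.53, adjusted p = 0.00690). Pfkfb3, which makes the activator of phosphofructokinase, was at 34.5, 55.6, 26.8 and 23.1 CPM against 5.47 to 19.02 (log2 fold change 1.49 ± 0.34, adjusted p = 0.00932). Eno1, enolase, was at 541, 835, 346 and 341 CPM against 85.4 to 311 (log2 fold change 1.84 ± 0.35, adjusted p = 0.00435), with reads that pseudogene copies may share. The glucose transporter Slc2a1 and the enzymes Hk1, Gpi1, Aldoa, Tpi1, Gapdh, Pgk1, Pgam1, Pkm and Pdk1 also rose, with tumors that overlapped NS, and Pfkm, Slc2a3, Hk2, Pfkfb4, Pfkp and Aldoc did not pass. Gapdh was at only 7.67 to 18.6 CPM in NS, against 591 to 1193 CPM for Aldoa. Whether reads shared with near-identical copies are missing from its count was not tested. The median shift of the list, in log2(CPM + 1) against each gene's NS median, was 1.12, 2.09, 0.77 and 1.56 in replicates 18, 19, 20 and 21. Without replicate 21 the log2 fold change of Pfkl was 1.74.

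Hypoxia targets of other kinds rose as well, with 16 of 28 tested members higher, 0 lower and 5 shared (median log2 fold change 1.43). Adm, the vasodilator adrenomedullin, was at 149, 189, 94.4 and 45.2 CPM in the tumors and between 3.36 and 28.3 CPM in NS (median 11.1). Each tumor was above every NS sample, and the log2 fold change between the groups was 3.26 ± 0.53 (SE), adjusted p = 0.00198. Vegfa, the main angiogenic growth factor, was at 15.2, 27.1, 118 and 18.1 CPM against 2.68 to 8.28 in NS, with replicate 20 highest (log2 fold change 2.998 ± 0.51, adjusted p = 0.00250). The part of the lung transcripts of replicate 20 in that level was not tested. Ero1l, an oxidase that forms disulfides in the endoplasmic reticulum, was at 359, 1314, 279.6 and 112 CPM against 52.97 to 112 (log2 fold change 2.85 ± 0.45, adjusted p = 0.00175). Replicate 21 lay at the top of the NS range for Ero1l, and replicate 19 about an order of magnitude above it. Bnip3, a mitophagy receptor, was at 661, 565, 347 and 410.2 CPM against 48.8 to 195 (log2 fold change 1.94 ± 0.35, adjusted p = 0.00321), and P4ha1, a collagen prolyl hydroxylase, at 84.1, 167, 85.1 and 108 CPM against 22.5 to 81.4 (log2 fold change 1.32 ± 0.31, adjusted p = 0.0110). Car9, the hypoxia-induced carbonic anhydrase, rose (log2 fold change 3.08 ± 0.78, adjusted p = 0.0157) but was at 0.665 CPM in replicate 21, within NS. The regulator Hif1a was at 968, 648, 381 and 233 CPM against 157 to 336 (log2 fold change 1.12 ± 0.34, adjusted p = 0.0319), with replicate 21 inside the NS range and the call lost in 8 of 24 other settings, and Epas1, which encodes HIF-2α, did not pass (log2 fold change 0.88 ± 0.48, adjusted p = 0.211). Without replicate 19, 10 hypoxia targets were higher. The same fit gave 1.82 for Ero1l and 2.22 for Car9, whose call was lost (adjusted p = 0.103), and the log2 fold change of Vegfa was 1.86 without replicate 20.

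Ldha and Bnip3 carry the core of the hypoxia response element, ACGTG, before their start, and their windows are shown because both genes rose in every tumor. The windows are the stretch of 250 bases before the RefSeq start on GRCm38.p6, ended where an exon that GENCODE annotates for the gene begins inside it. Capitals mark ACGTG on either strand, including places where the strands overlap as CACGTG. The Ldha window lies at chr7:46845554-46845803 (plus strand), inside the Ldha gene as GENCODE draws it from a start farther upstream but outside its exons, and that of Bnip3 at chr7:138909520-138909756 (minus strand).
Ldha: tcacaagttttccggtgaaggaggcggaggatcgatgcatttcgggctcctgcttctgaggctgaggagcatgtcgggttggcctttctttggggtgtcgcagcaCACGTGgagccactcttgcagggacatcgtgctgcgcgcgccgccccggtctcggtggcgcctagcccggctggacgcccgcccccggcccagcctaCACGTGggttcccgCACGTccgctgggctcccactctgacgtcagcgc
Bnip3: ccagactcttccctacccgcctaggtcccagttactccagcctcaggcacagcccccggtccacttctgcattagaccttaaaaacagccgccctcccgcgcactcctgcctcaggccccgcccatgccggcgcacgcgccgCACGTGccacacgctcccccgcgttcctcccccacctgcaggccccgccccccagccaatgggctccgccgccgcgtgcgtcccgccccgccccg
ACGTG occurred in 16.6% of all 27025 promoters of this length and in 21.4% of those of tested genes, of which 9109 of 12097 matched by symbol. It was present for 8 of 21 glycolytic genes (38.1%), 9 of 20 hypoxia targets (45%) and 56 of 226 shared higher genes (24.8%). A match is a description of letters and shows no binding.

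The unfolded protein response list had fewer called members, but nearly all of them were shared. Of 22 tested genes, 6 were higher (27.3%, against 11.7% of all genes), 0 lower and 5 shared (22.7%, against 2.63%), with a median log2 fold change of 0.57. Hspa5, the chaperone BiP, was at 1185, 1882, 1043 and 1767 CPM in cSCC replicates 18, 19, 20 and 21 and between 441 and 785 CPM in NS (median 642), a difference of 1.28 ± 0.29 (SE), adjusted p = 0.00876. Pdia4, a disulfide isomerase, was at 104, 174, 139 and 142 CPM and between 38.8 and 68.2 CPM in NS (median 49.7) (log2 fold change 1.49 ± 0.22, adjusted p = 0.00150). For both genes the lowest tumor was above the highest NS sample. Sdf2l1, a BiP partner, was at 28.3, 40.9, 33.8 and 48.7 CPM against 6.15 to 18.6 in NS (log2 fold change 1.71 ± 0.32, adjusted p = 0.00407), Pdia6 at 525, 552, 492 and 301 CPM against 179.9 to 286 (log2 fold change 1.01 ± 0.23, adjusted p = 0.0102), and Pdia3 at 776, 1339, 813 and 711 CPM against 376 to 621 (log2 fold change 0.96 ± 0.27, adjusted p = 0.0230). Calr, the lectin chaperone calreticulin, rose with replicate 18 inside the NS range (log2 fold change 1.22 ± 0.28, adjusted p = 0.00897). The sensors and transcription factors Xbp1 (log2 fold change 0.65 ± 0.22, adjusted p = 0.0548), Atf6, Ern1 and Eif2ak3 did not pass, nor did the degradation factors Herpud1, Sel1l, Edem1 and Syvn1. The called genes are folding enzymes, and 5 to 8 members were higher in the fits without 1 tumor. With library size alone, 11 glycolytic, 9 hypoxia and 3 unfolded protein response genes were higher and 0, 2 and 0 were shared. With the 4 haemoglobin genes removed before that scaling, 15, 12 and 6 were higher and 3, 3 and 4 shared. The call of Pdia3 was lost without replicate 19 (adjusted p = 0.0902).

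The endoplasmic reticulum stress element, CCAAT and CCACG held apart by 9 bases, was found before 9 of 20 genes of this list with a window (45%), against 0.122% of all promoters. That share counts list members whether or not they changed, and describes the list rather than the tumors. Among all shared higher genes with a window, 2 of 226 held the element (0.885%). Hspa5 and Pdia6 were the shared genes that held it, and are shown with the element in capitals. For Hspa5 the match alone is given (chr2:34772025-34772043, plus strand), since an annotated exon of the gene begins upstream of it. The Pdia6 stretch lies at chr12:17266339-17266544 (plus strand).
Hspa5: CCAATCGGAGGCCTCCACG
Pdia6: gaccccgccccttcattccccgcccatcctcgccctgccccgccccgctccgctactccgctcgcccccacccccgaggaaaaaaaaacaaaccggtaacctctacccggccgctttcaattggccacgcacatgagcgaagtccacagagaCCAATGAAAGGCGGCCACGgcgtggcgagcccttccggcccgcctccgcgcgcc
The other shared genes Pdia4, Sdf2l1 and Pdia3 had no match to these letters in their windows.

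**Figure D3:**
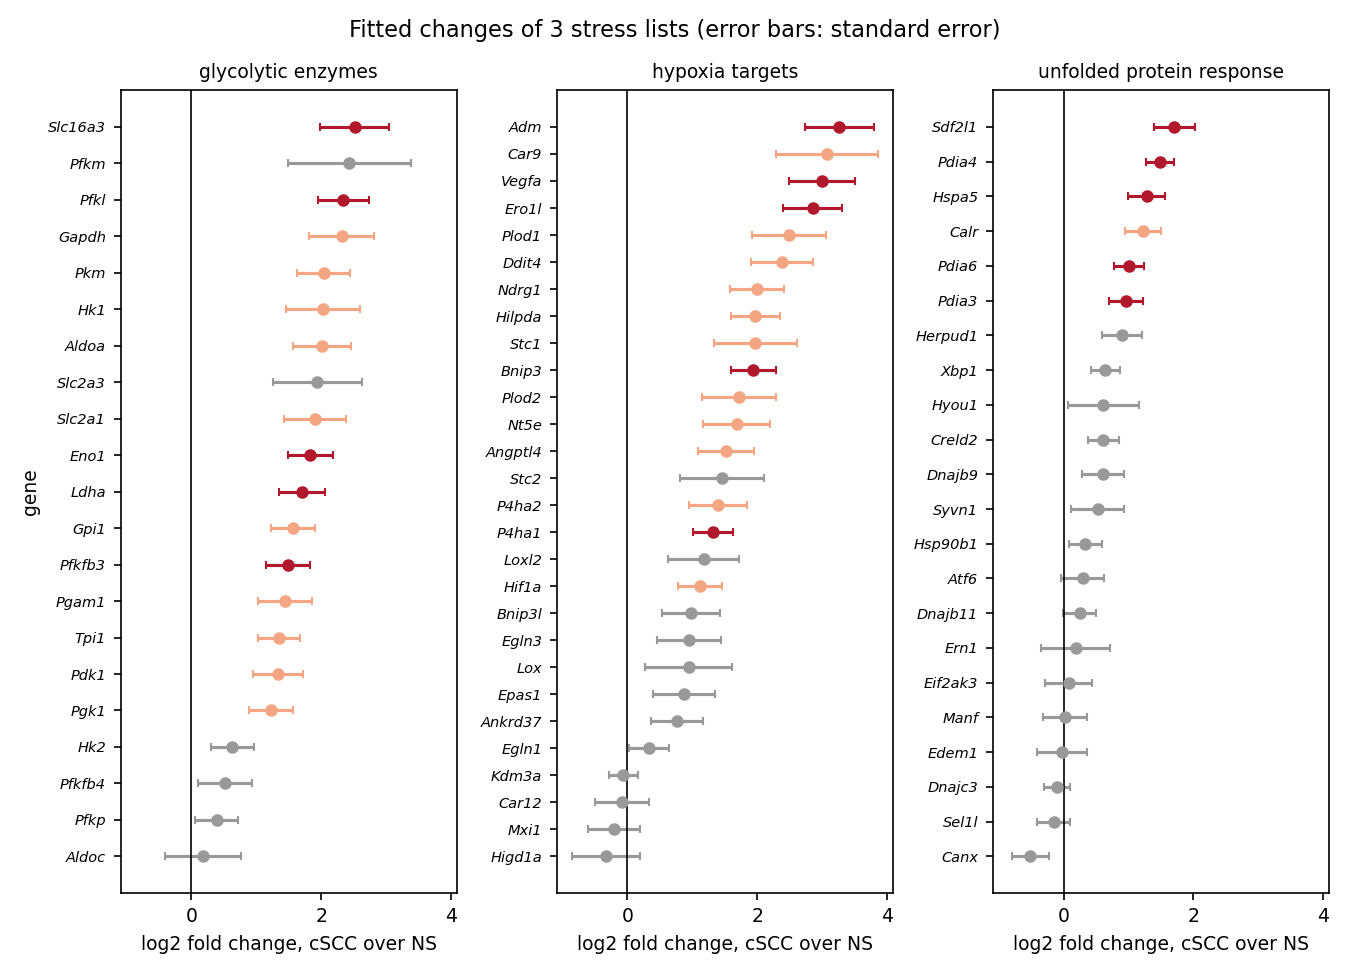
Fitted log2 fold change of cSCC over NS with its standard error for every tested member of the glycolytic, hypoxia and unfolded protein response lists. Dark red marks shared DEGs, light red other DEGs and grey genes that did not pass, and nearly all glycolytic members lie right of 0 whereas the called unfolded protein response genes are the 6 at the top.

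The integrated stress response, in which ATF4 raises amino acid transport and synthesis, had more higher than lower members. Its higher count fell in some other settings. Of 25 tested members, 9 were higher (36%, against 11.7% of all genes) and 1 lower (4%, against 7.65%). Shared genes numbered 2, with 1 higher (4%, against 2.63% of all genes) and 1 lower (4%, against 5.09%). The median log2 fold change was 0.71. Slc3a2, the heavy chain of amino acid transporters, was at 105, 134, 109.5 and 117 CPM in the tumors and between 39.7 and 78.7 CPM in NS (median 47.6). Its tumors lay close together and above NS (log2 fold change 1.18 ± 0.23, adjusted p = 0.00472). Nupr1, a stress-induced chromatin factor, went the other way, at 253, 228, 256 and 40.9 CPM against 340.5 to 613 in NS (log2 fold change -1.22 ± 0.41, adjusted p = 0.0481), a call that was lost in 14 of 24 other settings. Atf4 (log2 fold change 0.38 ± 0.25, adjusted p = 0.309), Ddit3, the death-associated factor CHOP (log2 fold change 0.61 ± 0.34, adjusted p = 0.226), and Atf3 (log2 fold change -0.25 ± 0.53, adjusted p = 0.778) did not pass. The count of higher members was 1 with limma voom, 3 without replicate 21 and 3 to 5 without NS replicate 1, 4, 5 or 6.

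Heat shock proteins, the chaperones of the cytosol and mitochondria, had shares of called members near those of all genes, with 3 of 19 higher (15.8%, against 11.7% of all genes), 2 lower (10.5%, against 7.65%) and 2 shared (median log2 fold change 0.56). Hspa8, the constitutive HSC70, was at 1564, 1416, 1032 and 1507 CPM in the tumors and between 479 and 906 CPM in NS (median 742) (log2 fold change 1.01 ± 0.28, adjusted p = 0.0232). Hspa1b, the inducible HSP70, was at 30.3, 25.4, 22.1 and 12.1 CPM against 34.2 to 73.3 in NS, so all tumors were below all NS samples (log2 fold change -1.29 ± 0.32, adjusted p = 0.0136). Its near-identical copy Hspa1a also fell, with overlap (log2 fold change -1.31 ± 0.37, adjusted p = 0.0264), and counts of the pair are uncertain. The regulator Hsf1 was a DEG (log2 fold change 1.83 ± 0.61, adjusted p = 0.0481) that rested on replicate 21, at 68.5 CPM, while replicates 18, 19 and 20 were at 3.45, 11.6 and 3.50 CPM and NS at 4.24 to 7.81. The count of higher heat shock members was 1 in each of 6 fits without 1 NS replicate (1, 4, 5, 6, 7 or 9), and 0 with library size alone. Without replicate 21 the log2 fold change of Hsf1 was -0.02, and the call of Hspa1a was lost without replicate 20 (adjusted p = 0.0537).

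The NRF2 antioxidant list had 8 of 27 members higher (29.6%, against 11.7% of all genes) and 3 lower (11.1%, against 7.65%). Shared genes numbered 7, with 5 higher (18.5%, against 2.63% of all genes) and 2 lower (7.41%, against 5.09%). The shares on the lower side were thus near those of all genes, and the median log2 fold change was 0.28. Gsta4, which conjugates lipid peroxidation products to glutathione, was at 145, 314, 154 and 347 CPM in the tumors and between 4.24 and 45.95 CPM in NS (median 15.5). Every tumor exceeded every NS sample by a wide margin (log2 fold change 3.88 ± 0.53, adjusted p = 0.00106). Prdx6, a peroxiredoxin, was at 365, 423, 279.6 and 596 CPM against 132 to 265 (log2 fold change 1.33 ± 0.26, adjusted p = 0.00443), Taldo1, of the pentose phosphate pathway, at 208, 169.9, 221 and 142 CPM against 73.3 to 114 (log2 fold change 1.09 ± 0.21, adjusted p = 0.00443), and Gstp1, which has near-identical copies, at 148, 181, 157 and 187 CPM against 43.7 to 111 (log2 fold change 1.16 ± 0.25, adjusted p = 0.00809). Me1, malic enzyme, which supplies NADPH to lipid synthesis, fell to 64.8, 27.6, 72.2 and 52.2 CPM from 135 to 242 in NS (log2 fold change -1.67 ± 0.29, adjusted p = 0.00283), and the exporter Abcc1 to 27.6, 45.4, 30.3 and 29.6 CPM from 65.5 to 116 (log2 fold change -1.37 ± 0.25, adjusted p = 0.00322). The regulator Nfe2l2 rose (log2 fold change 1.11 ± 0.31, adjusted p = 0.0241) with replicate 21, at 133 CPM, inside the NS range of 96.02 to 183. Hmox1, haem oxygenase, did not pass (log2 fold change -0.23 ± 0.27, adjusted p = 0.592). The call of Nfe2l2 was lost without replicate 19 (adjusted p = 0.145).

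Metal response genes, which buffer and move zinc and iron, had lower members only. Of 12 tested, 0 were higher, 3 lower (25%, against 7.65% of all genes) and 2 shared (16.7%, against 5.09%), with a median log2 fold change of -0.40. Slc30a1, the zinc exporter, was at 12.4, 13.3, 41.9 and 11.8 CPM in the tumors and between 47.8 and 124 CPM in NS (median 72.4) (log2 fold change -1.97 ± 0.43, adjusted p = 0.00756), and Mt4, the metallothionein of stratified epithelium, at 5.52, 0, 1.17 and 0 CPM against 5.71 to 41.9 (log2 fold change -3.92 ± 1.000, adjusted p = 0.0161). Mt1 had a difference of 0.02 ± 0.47 (SE), adjusted p = 0.983 and the regulator Mtf1 of -0.41 ± 0.30 (SE), adjusted p = 0.356. Of 24 p53 targets, 4 were higher (16.7%, against 11.7% of all genes), 1 lower (4.17%, against 7.65%) and 1 shared (median 0.54). The higher genes were Ccnd1, Ccng1, Bax and Trp53. Ccnd1, cyclin D1, was at 101, 616, 144 and 107 CPM against 32.3 to 52.9, with replicate 19 highest (log2 fold change 2.56 ± 0.40, adjusted p = 0.00167), whereas the classic targets Cdkn1a (log2 fold change 0.29 ± 0.28, adjusted p = 0.492) and Mdm2 (log2 fold change 0.83 ± 0.31, adjusted p = 0.0751) did not pass. Trp53 itself was at 19.997, 59.6, 20.97 and 53.9 CPM against 11.8 to 29.1, and replicates 18 and 20 overlapped NS (log2 fold change 1.05 ± 0.34, adjusted p = 0.0441), and its call was lost in 15 of 24 other settings. AP-1 and immediate early genes had shares near those of all genes. Of 22, 3 were higher (13.6%, against 11.7% of all genes), 2 lower (9.09%, against 7.65%) and 3 shared (median 0.65). Ier3, an early survival gene, was at 173, 461, 125 and 86.5 CPM against 42.4 to 80.5 (log2 fold change 1.88 ± 0.35, adjusted p = 0.00414), while Fosl2, a FOS relative, was at 62.7, 49.4, 71.1 and 21.3 CPM against 96.4 to 143 (log2 fold change -1.23 ± 0.29, adjusted p = 0.0119) and Egr2 at 9.65, 4.89, 12.8 and 5.32 CPM against 13.8 to 74.4 (log2 fold change -2.42 ± 0.53, adjusted p = 0.00774). Fos (log2 fold change 0.12 ± 0.65, adjusted p = 0.923) and Jun (log2 fold change 0.74 ± 0.49, adjusted p = 0.311) did not pass. Fits without replicate 19 gave 1.53 for Ccnd1 and 1.16 for Ier3, that without replicate 20 gave -2.60 for Slc30a1, and that without replicate 18 gave -6.99 for Mt4, all on the log2 scale.

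**Figure D4:**
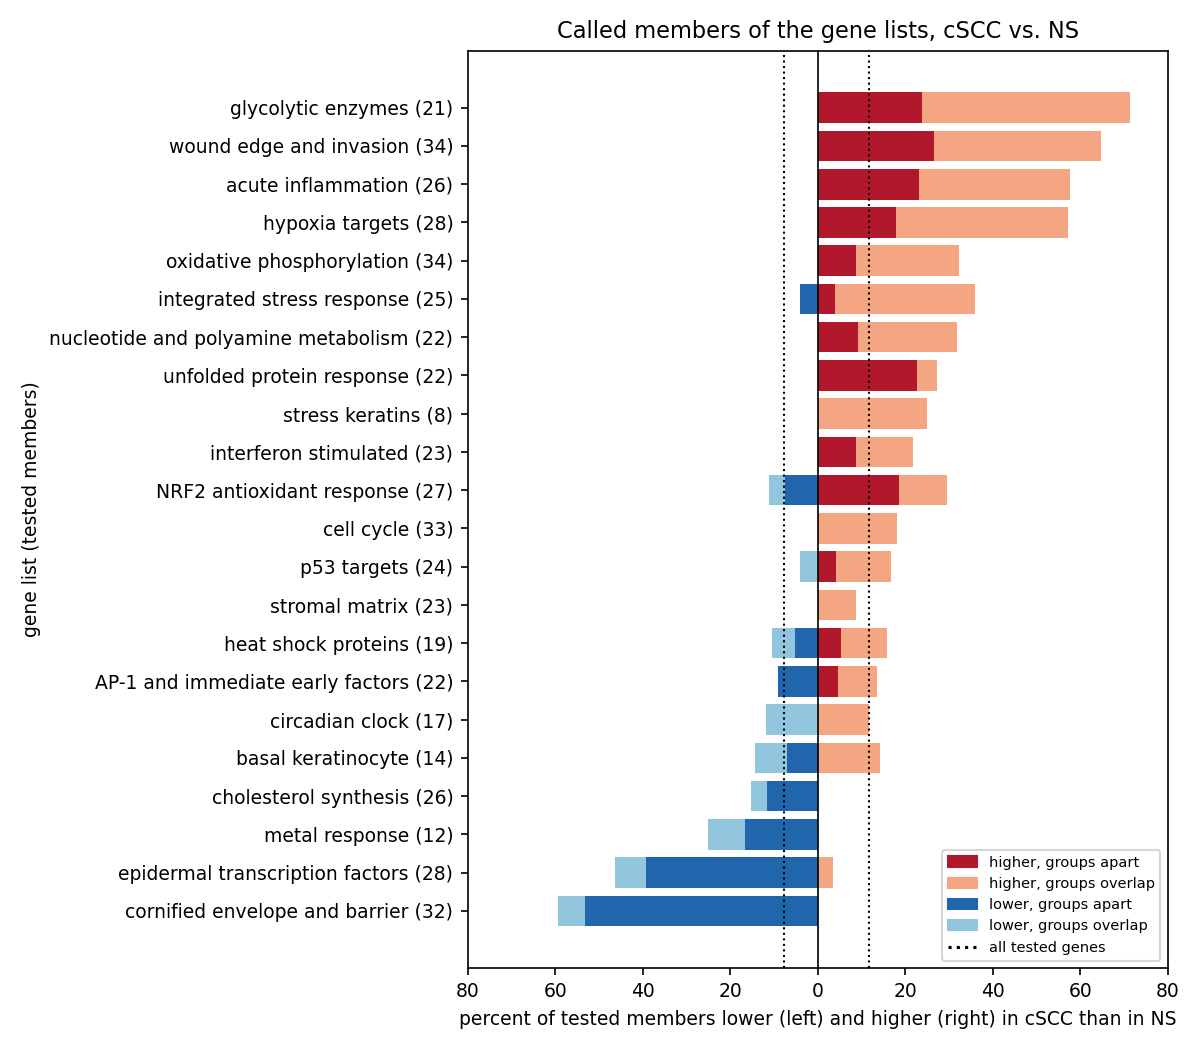
Percent of tested members of each of 22 gene lists that were higher (right) or lower (left) in cSCC than in NS, with dark shades for shared genes and dotted lines at the 11.7% and 7.65% of all tested genes. Glycolytic, wound edge, inflammation and hypoxia lists reach farthest right, and the barrier and epidermal transcription factor lists farthest left.

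Acute inflammation genes had the largest median change among the 22 lists, 3.06 on the log2 scale, with 15 of 26 tested members higher, 0 lower and 6 shared. Il1b, the alarm cytokine IL-1β (chr2:129364570-129371139, GRCm38, minus strand), was at 490.3, 1471, 1181 and 149.5 CPM in cSCC replicates 18, 19, 20 and 21 and between 5.14 and 31.3 CPM in NS (median 27.1). The groups were far apart, with replicate 21 the lowest tumor (log2 fold change 5.24 ± 0.55, adjusted p = 2.97e-04). Cxcl2, a neutrophil chemokine, was at 134, 137, 157 and 53.9 CPM against 0.354 to 6.60 in NS (log2 fold change 5.19 ± 0.55, adjusted p = 2.97e-04), and its neighbour Cxcl3 at 53.8, 89.4, 147 and 13.6 CPM against 0.213 to 6.83 (log2 fold change 5.05 ± 0.79, adjusted p = 0.00167). Trem1, which amplifies myeloid inflammation, was at 41.4, 103, 120.0 and 26.8 CPM against 0 to 5.41 (log2 fold change 5.75 ± 0.89, adjusted p = 0.00167). Ptgs2, the prostaglandin enzyme COX-2, was at 22.1, 162, 55.9 and 29.8 CPM against 0 to 8.71 (log2 fold change 4.76 ± 0.74, adjusted p = 0.00167), and Osm, the cytokine oncostatin M, at 6.21, 28.9, 18.6 and 7.15 CPM against 0 to 2.56 (log2 fold change 4.003 ± 0.86, adjusted p = 0.00753). Arg1, Cxcl1, Ccl3, Ccl4, Cxcl5, Socs3, Il24, Saa3 and Il19 also rose with overlap. Ptgs2 had a log2 fold change of 3.86 without replicate 19, and Trem1 of 6.41 without NS replicate 8.

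Myeloid markers were measured beside these genes. Cd14, the endotoxin co-receptor of monocytes, was at 599, 736, 1046 and 115 CPM in the tumors and between 9.51 and 53.9 CPM in NS (median 31.5) (log2 fold change 4.35 ± 0.49, adjusted p = 3.23e-04). Of 13 macrophage markers tested, 3 were higher (23.1%, against 11.7% of all genes) and 0 lower. The 14 macrophage genes present in the data summed to 1569.9 to 6272 CPM in NS and to 3207, 5978, 8917 and 974 CPM in the tumors. Replicate 21 was thus below NS and replicates 18 and 19 inside its range. Of 12 neutrophil markers, 2 were higher (16.7%, against 11.7% of all genes) and 0 lower. The 14 neutrophil genes present in the data summed to 222 to 6623 CPM in NS and to 15181, 3635, 4312 and 2869.5 CPM in the tumors. Elane was at 0 in all 4 tumors. Csf3r, the G-CSF receptor of neutrophils, was a shared DEG at 17.2, 27.1, 10.5 and 31.9 CPM against 0 to 8.30 in NS (log2 fold change 3.41 ± 0.84, adjusted p = 0.0137), while S100a9 overlapped NS (log2 fold change 2.51 ± 0.93, adjusted p = 0.0719). Without NS replicate 9, 6 neutrophil markers were higher, and the log2 fold change of Csf3r was 4.22. Of 9 mast cell markers, 2 were higher (22.2%, against 11.7% of all genes), Hdc and Tpsab1, and Cpa3 and Cma1 overlapped NS. How much of the inflammation genes came from infiltrating cells was not tested.

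The Cxcl2 window (chr5:90903649-90903870, GRCm38.p6, plus strand, up to the first annotated exon) is shown for the NF-κB letters, GGGA and TTTCC held apart by 1 base, in capitals, a sequence bound by the factor that IL-1 activates.
Cxcl2: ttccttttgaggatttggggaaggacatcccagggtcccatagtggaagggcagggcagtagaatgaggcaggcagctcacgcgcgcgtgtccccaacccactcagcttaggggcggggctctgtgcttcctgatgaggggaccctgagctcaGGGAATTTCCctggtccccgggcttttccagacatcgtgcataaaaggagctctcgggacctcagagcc
These letters were in 0.337% of all promoters and in 5 of 26 of the inflammation list (19.2%), whether or not its members changed. They were in 2 of 226 shared higher genes (0.885%) and 3 of 444 shared lower genes (0.676%).

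Among the 22 lists, genes of the wound edge and of invasion rose in the largest number, 22 of 34 tested, with 0 lower and 9 shared (median log2 fold change 2.13). Mmp13, a collagenase, was at 919, 1177, 501 and 112 CPM in the tumors and between 0.354 and 46.6 CPM in NS (median 7.75). All tumors exceeded NS, replicate 21 least (log2 fold change 5.45 ± 0.93, adjusted p = 0.00253). Mmp9, a gelatinase, was at 363, 113, 95.5 and 53.7 CPM against 8.68 to 41.2 (log2 fold change 2.79 ± 0.49, adjusted p = 0.00288). Plaur, the urokinase receptor, was at 35.9, 184, 206 and 49.6 CPM against 2.66 to 24.6 (log2 fold change 3.69 ± 0.57, adjusted p = 0.00167), and Inhba, the activin A subunit, at 28.96, 71.6, 29.1 and 10.3 CPM against 0 to 6.60 (log2 fold change 3.43 ± 0.60, adjusted p = 0.00283). Itgb1, the β1 integrin, was at 548, 946, 456 and 345 CPM against 125 to 296 (log2 fold change 1.67 ± 0.30, adjusted p = 0.00321). The laminin genes Lama3 and Lamb3, and Itga5, Hbegf, Areg, Timp1, Plau, Mmp3 and Mmp10 also rose, with overlap. The median shift of the list was 1.32, 2.83, 1.33 and 0.15 on the log2 scale in replicates 18, 19, 20 and 21. Without replicate 19, 12 members were higher, and without replicate 21 the shared members numbered 17. The log2 fold change was 1.92 for Mmp9 without replicate 18 and 2.81 for Inhba without replicate 19.

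The Mmp13 window (chr9:7272264-7272513, GRCm38.p6, plus strand) is shown for the AP-1 letters TGANTCA, in capitals, near its start.
Mmp13: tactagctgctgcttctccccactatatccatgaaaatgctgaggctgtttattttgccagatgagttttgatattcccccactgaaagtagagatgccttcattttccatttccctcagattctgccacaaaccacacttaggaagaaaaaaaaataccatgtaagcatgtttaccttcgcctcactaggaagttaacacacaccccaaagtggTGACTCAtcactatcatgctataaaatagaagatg
TGANTCA was in 6.87% of all promoters, in 7 of 27 of the wound edge list (25.9%), in 3.98% of shared higher genes and in 8.78% of shared lower genes.

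Keratins of stressed epidermis, stroma and proliferation varied from tumor to tumor. Of 8 stress keratins, 2 were higher (25%, against 11.7% of all genes), 0 lower and 0 shared (median log2 fold change 1.14). Krt6a was at 3362, 5179.5, 1453 and 2562 CPM in the tumors and between 259 and 3189 CPM in NS (median 683), so the NS range reached into that of the tumors (log2 fold change 1.56 ± 0.60, adjusted p = 0.0791). Krt16 (log2 fold change 0.70 ± 0.85, adjusted p = 0.6001) and Krt17 (log2 fold change 0.79 ± 0.38, adjusted p = 0.161) did not pass either. Krt18, a keratin of simple epithelium, was at 3.45, 1126, 179 and 5.66 CPM against 0 to 7.24 (log2 fold change 7.58 ± 1.27, adjusted p = 0.00228), high in replicates 19 and 20 and within NS in 18 and 21. Replicate 20 is the library with lung transcripts, and their part in its Krt18 level was not tested. Of 23 stromal matrix genes, 2 were higher (8.7%, against 11.7% of all genes), Col4a1 and Sparc, and 0 were shared (median 0.62). Of 33 cell cycle genes, 6 were higher (18.2%, against 11.7% of all genes), 0 lower and 0 shared (median 0.53). The 6 were Rrm2, Aurka, Cdc20, Plk1, Ube2c and Mcm3. Mki67, the proliferation antigen, was at 154, 198, 81.6 and 12.3 CPM in the tumors and between 80.9 and 243 CPM in NS (median 112) (log2 fold change -0.15 ± 0.51, adjusted p = 0.874). Its level was below NS in replicate 21 and inside the NS range in the other tumors. Nucleotide and polyamine metabolism had 7 of 22 members higher (31.8%, against 11.7% of all genes), 0 lower and 2 shared (median 0.79). These were Upp1, described above, and Uck1, a uridine-cytidine kinase, at 24.1, 38.7, 30.3 and 28.8 CPM against 7.79 to 21.3 (log2 fold change 1.22 ± 0.31, adjusted p = 0.0164). Odc1, which starts polyamine synthesis, rose with overlap (log2 fold change 2.72 ± 0.60, adjusted p = 0.00814). Leaving out replicate 19 moved the log2 fold change of Krt18 to 5.20 and of Odc1 to 2.02, and Uck1 was no longer a DEG (adjusted p = 0.0525).

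The counts of oxidative phosphorylation, endothelial and interferon genes moved with single tumors. Of 34 oxidative phosphorylation genes, 11 were higher (32.4%, against 11.7% of all genes), 0 lower and 3 shared (median 1.14). The median shift was 0.33, -0.61, -0.46 and 2.31 in replicates 18, 19, 20 and 21, beside the heart muscle list in replicate 21, and without that sample 3 members were higher. DESeq2 called 4 of the list higher and 0 lower, and limma voom 2 higher and 2 lower. Cyc1, cytochrome c1, was 1 of the 3 shared members, at 99.3, 201, 127 and 2014 CPM against 62.6 to 80.5 in NS (log2 fold change 3.20 ± 0.61, adjusted p = 0.00443). Replicate 21 was by far the highest, but the call of Cyc1 held in each of the 12 fits without 1 sample. Of 13 endothelial markers, 11 were higher, 0 lower and 1 shared, Tie1. Their sum was 50.4 to 143 CPM in NS and 154, 226, 349.5 and 1087 CPM in the tumors, and 4 markers were higher without replicate 21 and 0 without replicates 20 and 21. Of 23 interferon-stimulated genes, 5 were higher (21.7%, against 11.7% of all genes), 0 lower and 2 shared (8.7%, against 2.63%), with a median of 1.26. Irf7, which drives type I interferon, was at 13.8, 14.2, 12.8 and 25.3 CPM against 2.34 to 10.3 (log2 fold change 1.58 ± 0.46, adjusted p = 0.0284), and Ifit2 at 24.1, 16.01, 20.97 and 47.6 CPM against 1.78 to 14.1 (log2 fold change 1.85 ± 0.47, adjusted p = 0.0153). Without replicate 21, the log2 fold change of Cyc1 was 1.07 and 2 interferon-stimulated genes were higher. Irf7 (adjusted p = 0.110) and Ifit2 (adjusted p = 0.0728) did not pass in that fit, and their calls were lost in 6 and 5 of 24 other settings.

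Among the 22 lists, that of the cornified envelope and barrier had the most shared lower genes. Of 32 members, 0 were higher and 19 lower, and 17 of these were shared (median log2 fold change -2.43). Lor, loricrin, the main envelope protein (chr3:92080271-92083142, GRCm38, minus strand), was at 18.6, 1.33, 8.16 and 1.996 CPM in cSCC replicates 18, 19, 20 and 21 and between 225 and 879.9 CPM in NS (median 579). Replicate 18 kept the most, yet lay far below the lowest NS sample (log2 fold change -6.35 ± 0.78, adjusted p = 5.58e-04). Flg2, a filaggrin relative, was at 17.2, 1.78, 11.7 and 0 CPM against 141 to 2988 (log2 fold change -7.32 ± 1.36, adjusted p = 0.00387). Lce1m, a late envelope protein, was at 6.90, 0, 4.66 and 0.333 CPM against 137 to 1424 (log2 fold change -7.71 ± 1.14, adjusted p = 0.00150), and its neighbours Lce1a1, Lce1b and Lce1l, whose reads may be shared, were shared lower genes too. Krt77, a keratin of suprabasal cells, was at 0.690, 2.67, 1.17 and 2.50 CPM against 27.6 to 2335 (log2 fold change -8.67 ± 1.27, adjusted p = 0.00144), and Krt10 at 319, 9.34, 45.4 and 11.6 CPM against 890.3 to 2463 (log2 fold change -4.04 ± 0.92, adjusted p = 0.00920). Abca12, which loads lipid into lamellar granules, was at 121, 20.02, 30.3 and 24.95 CPM against 245 to 676 (log2 fold change -3.03 ± 0.54, adjusted p = 0.00321). The median shift of the list was -1.46, -3.87, -3.20 and -4.48 in replicates 18, 19, 20 and 21. Without replicate 18 the log2 fold changes were -7.54 for Lor, -8.48 for Flg2, -9.12 for Lce1m, -6.24 for Krt10 and -4.02 for Abca12.

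Slurp1, Atp12a and Slc6a19 were also among the 10 lower genes with the widest gaps. Slurp1, a secreted ligand that acts on keratinocytes, was at 1.38, 0.890, 0 and 0 CPM against 36.6 to 131 in NS, at most 2 counts in any tumor, so its fitted difference (log2 fold change -7.34 ± 0.80, adjusted p = 2.97e-04) rests on few counts. Atp12a, a proton pump, had 2 counts over all 4 tumors and 2514 over NS, a ratio of 409 (exact 95% counting interval 113 to 3376). The amino acid transporter Slc6a19 had 1 count over the tumors and 993 over NS, a ratio of 323 (interval 57.8 to 12760). These ratios use pooled counts per normalized total. Slurp1 ranged from -8.16 without replicate 18 to -6.45 without replicate 21.

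The list of epidermal transcription factors also holds NOTCH receptors and ligands. Of its 28 tested members, 13 fell, 1 rose (the NOTCH ligand Jag2) and 11 were shared lower genes (median log2 fold change -1.35). Rora, the nuclear receptor RORα (chr9:68653786-69388246, GRCm38, plus strand), was at 93.1, 26.7, 125 and 45.1 CPM in the tumors and between 340.3 and 762 CPM in NS (median 494). No tumor reached the lowest NS sample (log2 fold change -2.82 ± 0.45, adjusted p = 0.00171). Grhl1, grainyhead-like 1, was at 64.8, 20.9, 34.95 and 23.5 CPM against 132 to 307 (log2 fold change -2.51 ± 0.37, adjusted p = 0.00150), and Zfp750, a driver of terminal differentiation, at 25.5, 15.6, 11.7 and 12.98 CPM against 35.3 to 88.5 (log2 fold change -2.01 ± 0.32, adjusted p = 0.00185). Prdm1, BLIMP1, was at 24.8, 26.7, 19.8 and 18.6 CPM against 56.2 to 111 (log2 fold change -1.79 ± 0.27, adjusted p = 0.00167). Pou2f3 was at 10.3, 2.67, 5.83 and 0 CPM against 30.7 to 103 (log2 fold change -3.82 ± 0.81, adjusted p = 0.00703), and Barx2 at 1.38, 0.445, 0 and 2.16 CPM against 4.47 to 11.9 (log2 fold change -2.73 ± 0.60, adjusted p = 0.00804). Vdr, Notch2, Pou3f1, Hes1 and Tfap2a were the other shared members. Without replicate 19, 7 members were shared. Basal keratinocyte genes, by contrast, had 2 of 14 higher (Sfn and Dsg3) and 2 lower, and their median was -0.21. Each count was 14.3% of the list, against 11.7% higher and 7.65% lower of all genes. Cdh1, E-cadherin, was the shared lower member, at 135, 91.2, 82.7 and 34.9 CPM against 152 to 370.3 (log2 fold change -1.61 ± 0.35, adjusted p = 0.00777). Pou2f3 was at -4.93 without replicate 18 and Barx2 at -3.59 without replicate 21, as log2 fold changes.

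**Figure D5:**
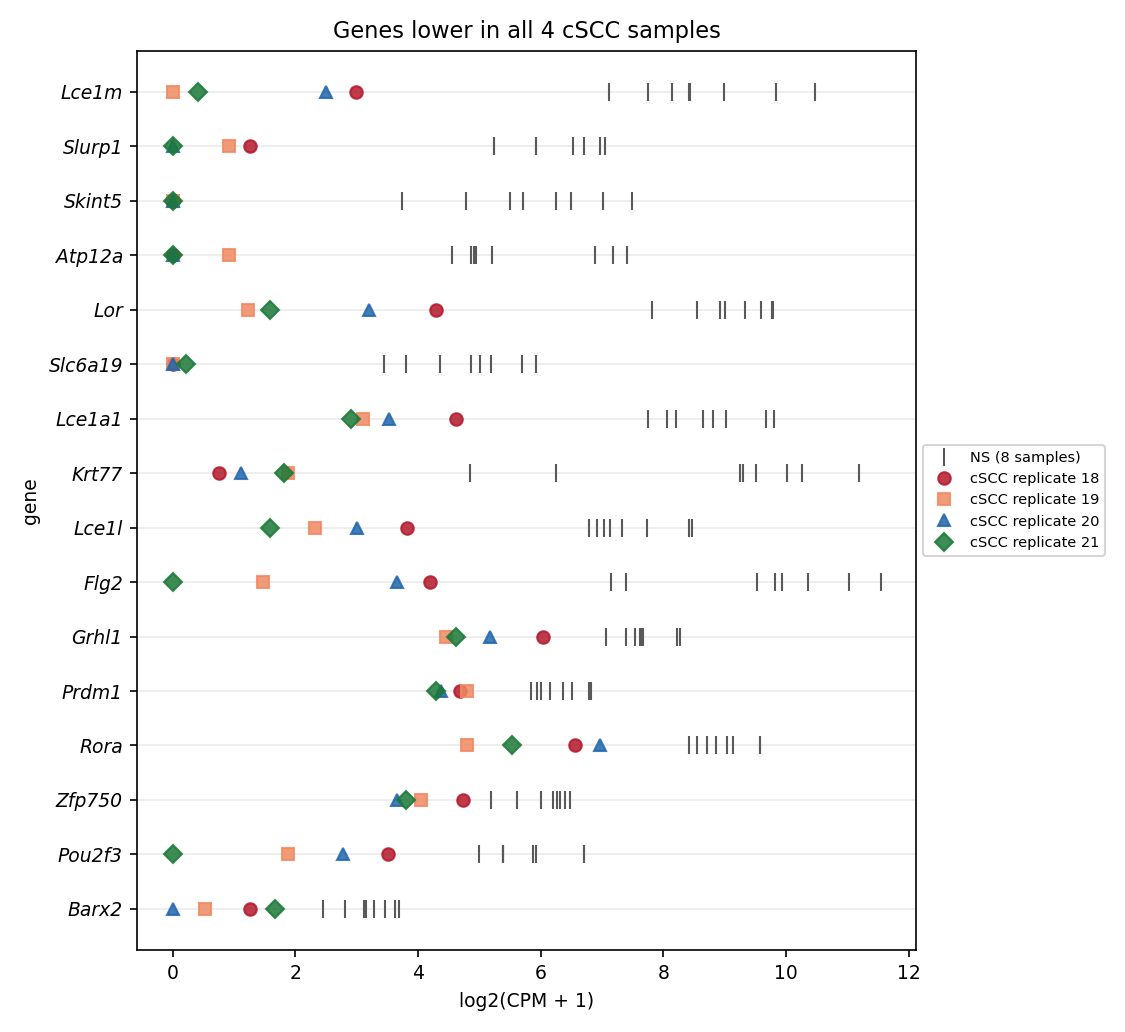
Levels, as log2(CPM + 1), of the 10 shared lower genes with the widest gap and of 6 epidermal transcription factors (Grhl1 to Barx2), with NS samples as grey ticks and each tumor in its own color. All 4 tumors lie to the left of all NS samples for every gene, and replicate 18 is the closest to NS for Lor, Flg2 and the Lce1 genes.

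Markers of other cells of the epidermis and its glands differed from list to list. Of 20 T cell and Skint genes, 0 were higher, 14 lower, of which 11 were Skint genes, and 13 shared (median -3.75, or -3.18 with the 3 genes that had no tumor count set at their bound). Skint genes are made by keratinocytes and select epidermal γδ T cells, and share sequence. Skint5 had 0 counts in all 4 tumors against 12.3 to 178 CPM in NS, at least 18.1-fold lower at the median of NS over 3 counts in the smallest tumor library. Cd3g, a T cell receptor subunit, was at 5.52, 2.22, 16.3 and 1.16 CPM against 27.9 to 144 (log2 fold change -3.60 ± 0.70, adjusted p = 0.00466). Cd207, langerin, which marks Langerhans cells, was at 8.96, 2.67, 0 and 0 CPM against 36.2 to 141 (log2 fold change -4.96 ± 0.89, adjusted p = 0.00321), the 1 lower gene of 11 Langerhans and MHC class II genes, in which Cd74 was the 1 higher gene. Each was 9.09% of the list, against 7.65% lower and 11.7% higher of all genes. Of 11 sebocyte markers, 7 were lower, all shared, and 0 higher. Krt79, of the gland duct, was at 73.8, 5.34, 76.9 and 1.83 CPM against 557 to 1624 (log2 fold change -4.67 ± 0.92, adjusted p = 0.00486), and Awat2 was at 0 in all tumors. Limma voom called 7 T cell and Skint genes and 1 sebocyte gene lower. The log2 fold change was -4.63 for Cd3g without replicate 20, and -6.64 for Cd207 and -5.27 for Krt79 without replicate 18.

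Hair follicle markers had 3 of 11 lower (27.3%, against 7.65% of all genes) and 0 higher. Skeletal muscle markers had 10 of 18 lower (55.6%) and 1 higher (Mb). Melanocyte markers had 0 of 5 and adipocyte markers 0 of 11 called in either direction with edgeR. At an unadjusted p under 0.05, 0 melanocyte and 1 adipocyte markers passed, and with the 1.5-fold limit DESeq2 called 0 and 0 and limma voom 0 and 0. Smooth muscle markers had 2 of 8 higher (25%, against 11.7% of all genes), Des and Smtn. Mb, myoglobin, was at 79.3, 12.5, 45.4 and 10149 CPM and Des, desmin, at 8.96, 8.90, 22.1 and 1972 CPM in the tumors, both high in replicate 21 alone. Without that sample their log2 fold changes were -1.36 (adjusted p = 0.123) for Mb and -1.56 (adjusted p = 0.0897) for Des. Without replicate 20, 6 adipocyte markers were lower. Erythroid markers had 7 of 7 higher, lung 4 of 8 and heart 10 of 14, counts that fell to 1, 0 and 4 without replicates 18, 20 and 21 in turn.

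Of 26 cholesterol synthesis genes, 0 were higher, 4 lower (15.4%, against 7.65% of all genes) and 3 shared (11.5%, against 5.09%), with a median log2 fold change of -0.49. Hmgcs1, which makes the mevalonate precursor HMG-CoA, was at 285, 204, 97.9 and 86.2 CPM in the tumors against 286 to 513 in NS, with replicate 18 just below the lowest NS sample (log2 fold change -1.30 ± 0.34, adjusted p = 0.0182), and the regulator Srebf2 did not pass (log2 fold change -0.07 ± 0.34, adjusted p = 0.913). Of 17 clock genes, Nr1d1 and Bhlhe40 were higher (11.8%, against 11.7% of all genes), Per2 and Hlf lower (11.8%, against 7.65%), and 0 were shared (median -0.31).

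Levels in AK are set beside the widest gaps as values only, with TMM factors over all 20 samples. These genes were picked for tumors far outside NS, so counts of genes with AK short of the tumors are shaped by that choice. The same counts over all genes were not made. Of the 15 higher genes, 9 had every AK sample below every tumor, and for 6 the AK median was above the highest NS sample. Upp1 was at 2.25 to 17.98 CPM in AK (median 7.86), a range that overlapped NS, with at most 4.26 CPM, and stayed below cSCC, with at least 61.5 CPM. Mmp13 had an AK range of 11.5 to 506 CPM (median 146), which overlapped the tumors, and Cxcl2 one of 0 to 61.1 CPM (median 6.05). Of the 10 lower genes, 9 had every AK sample above every tumor, and for 8 the AK median was below the lowest NS sample. Lor was at 49.1 to 386 CPM in AK (median 155), under an NS minimum of 228 CPM at the median and above the highest tumor, at 18.8 CPM.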

How the data were processed

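RNA was read as 150-base paired ends from Nextera libraries of skin and lesions of SKH-1 mice, per the labels. The authors trimmed reads with Trimmomatic, aligned them with HISAT2 to GRCm38 and quantified expression with StringTie, according to their methods, while the submitters' processing notes name Trimmomatic 0.36, HISAT2 2.0.5 and featureCounts 1.5.2 with the builds hg19 and mm9, without roles. Which of these tools gave the deposited counts, and its strand setting, are not given in the sources used here. The labels name daily irradiation and a HiSeq instrument, and the study's methods differ on both. The authors deposited raw counts per gene symbol, not normalized, and no column was left unmapped. The 13 mitochondrial genes in the table had 0 counts. Reads of near-identical or overlapping genes could not be told apart.

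Counts of the 4 cSCC and 8 NS samples were fitted with edgeR 4.0.16 in R 4.3.3 (filterByExpr, TMM factors, quasi-likelihood test, Benjamini-Hochberg adjustment over all genes tested). CPM values use the TMM factors, and SE is the log2 fold change over the square root of F. Labels give no batch, and nothing says which samples share a mouse, so p-values measure the spread between these samples. Among 34 pairs of samples within a group, no pair agreed within sampling noise (smallest chi-square per degree of freedom 11.6). In counts simulated for this comparison on 12097 genes, with changed genes raised or lowered by 2 on the log2 scale, 104 of 198 changed genes were recovered and 7 others were called. Alternatives were DESeq2 1.42.0, limma voom 3.58.1 with sample quality weights, other scalings and filters, all 20 samples in 1 fit, no fold limit and fits without samples. Removing the haemoglobin genes before scaling by library size was chosen after seeing the data.

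Samples were taken by their labels, and the comparison, gene lists and tests were chosen with earlier results of these data known. Genes were named as the 15 higher and 10 lower shared DEGs with the widest gap between the groups on log2(CPM + 1), up to 6 shared DEGs a list by adjusted p with its regulator, and up to 5 markers of each other tissue by level. Atf3, Calr, Car9, Cd207, Cdkn1a, Csf3r, Hmox1, Hspa1a, Krt6a, Krt10, Krt16, Krt17, Krt18, Mdm2, Mki67, Mt1, Odc1 and the members listed without values were chosen after their values were seen. Gene coordinates are from the GENCODE annotation of GRCm38 and promoters from RefSeq on GRCm38.p6, which matched 9109 of the 12097 tested genes by symbol. Some genes that the rule names are not reported here.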

Additional observations from a re-analysis of the deposited data

Results flagged for a closer look

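A sample stood apart from the rest of its group in 43 of 251 tests, made for the genes and marker sums of the report, in CPM with TMM factors, by Dixon's ratio of the gap to the nearest sample over the range of the group. The limits used flag about 1 in 20 groups of normally distributed values. That rate need not hold here, since CPM was not log-transformed and some genes were named after their values were seen. Of the 43 cases, 12 were in cSCC replicate 21. In the lists that follow the sample was the highest of its group unless said otherwise.

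Replicate 21 had Mb at 10149, Tnnc1 at 2606, Cyc1 at 2014, Des at 1972, Gpihbp1 at 145, Hsf1 at 68.5, Irf7 at 25.3 and Slc6a19 at 0.166 CPM, the last from a single count, and Nupr1 as the lowest tumor at 40.9 CPM. Its heart muscle genes summed to 86513, its skeletal muscle genes to 18724 and its smooth muscle genes to 2277 CPM. Replicate 18 had S100a9 at 8357, Krt10 at 319 and Abca12 at 121 CPM, with an erythroid sum of 920224 CPM and a neutrophil sum of 15181 CPM. Haemoglobin genes held 46.8% of its counts, and its TMM factor of 0.512 scales up all its values. Replicate 19 had Ldha at 6413, Pdia3 at 1339, Krt18 at 1126, Ccnd1 at 616, Fos at 107, Abcc1 at 45.4 and Atp12a at 0.890 CPM. Replicate 20 had Vegfa at 118 and Slc30a1 at 41.9 CPM, a lung epithelium sum of 41382 CPM and a sebocyte sum of 1458 CPM, and was the lowest tumor for Hspa1a at 5.83 CPM.

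Among NS samples, replicate 8 had Eno1 at 311, Mki67 at 243, Odc1 at 98.8, Gsta4 at 46.0 and Ptgs2 at 8.71 CPM. Replicate 6 had Fos at 214 and Jun at 71.6 CPM, replicate 7 had S100a9 at 2709.7 CPM and a neutrophil sum of 6623 CPM, and replicate 1 had Prdx6 at 265 CPM and a skeletal muscle sum of 12619 CPM. Replicate 9 had Krt18 at 7.24 CPM, an erythroid sum of 52792 CPM and a mast cell sum of 1435 CPM.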

How the results depend on the processing

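Against 1414 higher and 926 lower genes, limma voom gave 768 and 540, library size alone 625 higher, all 20 samples in 1 fit 1488 lower, fits without replicates 20 and 21 gave 733 higher, and replicate 19 alone against NS 776 higher, with the spread of the lone sample assumed to be like that of NS. Leaving out 1 sample gave 859 to 1890 higher and 703 to 1291 lower genes, the lowest higher count without cSCC replicate 21 and the highest without cSCC replicate 18. Against 318 shared higher and 616 shared lower genes, library size alone gave 63 and 977, limma voom 373 lower, the pair of replicates 18 and 19 590 higher, and replicate 19 alone 776 higher. With fewer tumors the rule on all tumors is easier to pass, and leaving out 1 sample gave 307 to 638 shared higher (498 without replicate 20) and 556 to 1098 shared lower genes. Of the shared genes, 226 of 318 and 501 of 616 were DEGs in all 12 fits without 1 sample, and 127 (39.9%) and 252 (40.9%) in all 24 other settings.

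Of 2626 values of the 110 genes with values, 2487 kept direction and side of the threshold, 114 lost their call, 14 gained one and 11 changed sign, and 71 genes kept both in every setting that gave a value. The sign changed for Des (-0.61 with limma voom, -1.56 without replicate 21, -2.09 without replicates 20 and 21, -2.14 with replicate 19 alone), Mb (-1.05, -1.36, -1.38 and -3.28 in the same order), Hsf1 (-0.017 without replicate 21) and Epas1 (-1.22 without replicates 20 and 21 and -1.31 with replicate 19 alone). Leaving out 1 sample gave -1.56 to 4.20 for Des, -1.36 to 4.92 for Mb and -0.017 to 2.18 for Hsf1, each highest without replicate 18. Of 2736 counts for the gene and marker lists, 471 moved by over 1.5 times. Beyond fewer samples in the fit, the cause of these shifts was not tested.

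No paired analysis was possible because the labels do not say which cSCC and NS samples come from the same mouse. With 4 tumors, 3 of which carry transcripts of other tissues, and as few as 775750 counts, genes below a few CPM were not measurable in every tumor. In simulated counts, 52.5% of 4-fold changes were recovered. The simulation changed 200 genes, against 1414 higher and 926 lower DEGs in the data, and held no transcripts particular to single tumors. Recovery in the data may therefore differ.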
